A study of Mus musculus with 6 samples.

Results

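The integrated stress response genes described here are 10 genes taken by symbol from the count table: Atf4, Ddit3, Asns, Chac1, Trib3, Sesn2, Psat1, Phgdh, Slc7a11 and Ppp1r15a. They are 10 of the 24516 genes counted, and all 10 had enough reads to be among the 13427 genes tested. Poly(A) RNA was sequenced from iMGT-Myh6-eGFP-MEF cells, a mouse embryonic fibroblast line in which doxycycline switches on the cardiac transcription factors Mef2c, Gata4 and Tbx5 (MGT). The line also carries an eGFP reporter of Myh6, the alpha cardiac myosin heavy chain. Cells were transfected with siRNA against Junb (siJunb), with siRNA against H1f0 (siH1f0) or with control siRNA (siControl), and received doxycycline at 1 ug/mL the day after, so the controls carry the induced factors too. There were 2 libraries per group, labelled as biological replicates of a single line. The sample labels give day 1 after induction, whereas the series text states day 3 and sorting of cells positive for GFP. JUNB belongs to the AP-1 family of transcription factors, and H1f0 encodes the linker histone H1.0. The comparisons ask how loss of either changes the transcriptome of these cells during early reprogramming towards cardiomyocytes.

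In the integrated stress response, kinases that sense amino acid shortage, unfolded protein in the endoplasmic reticulum, viral RNA or haem shortage phosphorylate the initiation factor eIF2. Most translation then falls while ATF4 is translated through its upstream open reading frames, and ATF4, paired with C/EBP family and other basic leucine zipper (bZIP) proteins, switches on genes for amino acid synthesis, amino acid uptake, redox balance and feedback control. Atf4 mRNA therefore reads only a portion of the control of ATF4, and counts of mRNA do not read eIF2 phosphorylation.

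Library totals ran from 48690447 to 85979630 counts, and each member had at least 3237 counts in every library. Levels are given as CPM, a gene's share of the library total after TMM scaling (trimmed mean of M values). Junb had 10.7 and 8.89 CPM in siJunb cells, against 39.1 and 35.7 CPM in siControl cells, and its log2 change was -1.93 ± 0.0923 (SE; edgeR adjusted p = 1.6e-05). H1f0 had 51.6 and 54.4 CPM in siH1f0 cells, against 798 and 742 CPM in siControl cells, and its log2 change was -3.86 ± 0.059 (SE; edgeR adjusted p = 7.1e-09). Each target was also lower in the other knockdown, with both knockdown libraries below both siControl libraries. In siJunb against siControl cells H1f0 had a log2 change of -0.23 and passed (edgeR adjusted p = 0.021). In siH1f0 against siControl cells Junb had one of -0.29 and did not pass (edgeR adjusted p = 0.0778), but passed under DESeq2 and with no count filter. Library siControl 1 stood apart from the other libraries. Its Mef2c level was 354 CPM and its Gata4 level 844 CPM, whereas the other 5 libraries had 709 to 792 CPM of Mef2c and 1343 to 1480 CPM of Gata4. Ribosomal precursor RNA (Rn45s) took 1.90% of its counts and 0.308% to 0.655% of theirs. The results on the members against siControl cells are therefore also given without that library. Of 10 fibroblast markers, Thy1 and Postn were under 1 CPM in every library, and Thy1 was at 0 counts in 5 of 6. The summed level of the 10 was 11671.4 and 11717.1 CPM in siJunb cells, 13716.6 and 13190.5 CPM in siH1f0 cells and 11522.5 and 13568.5 CPM in siControl cells. Of 8 cardiomyocyte markers, Actn2, Ryr2, Nppa and Pln were under 1 CPM in every library, and the summed level of the 8 was 113 and 114 CPM in siJunb cells, 134 and 143 CPM in siH1f0 cells and 141 and 124 CPM in siControl cells. Tnnt2 made up most of that sum, and single markers differed more. Actc1 had 3.79 and 4.02 CPM in siJunb cells, 18.4 and 20.0 CPM in siH1f0 cells and 22.2 and 19.7 CPM in siControl cells, a log2 value of -2.43 in siJunb against siControl cells and 2.30 in siH1f0 against siJunb cells (edgeR adjusted p = 7.9e-06 and 4.4e-06). Of 5 cardiomyocyte markers tested, 1 was lower in siJunb against siControl cells (median log2 -0.81), 0 passed in siH1f0 against siControl cells (1 at an unadjusted p under 0.05) and 3 (Actc1, Myh6 and Myh7) were higher in siH1f0 against siJunb cells. Of 9 fibroblast markers tested, 1 was higher in siJunb and 1 in siH1f0 cells, each against siControl cells, and 2 were higher and 3 lower in siH1f0 against siJunb cells. Of all genes tested, 8.63% passed as higher and 7.82% as lower in siJunb against siControl cells. These shares were 2.27% and 4.27% in siH1f0 against siControl cells, and 12.2% and 13.8% in siH1f0 against siJunb cells. All 5 endothelial and all 5 epithelial markers were under 1 CPM in every library, and 6 leukocyte markers together had 2.21 to 3.46 CPM. The part of these differences in the results on the members was not tested.

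Per length (TPM, each gene's share of the library after division by its length), the members differed widely in level. Atf4 was the highest, at 805 ± 18.1 TPM in siJunb cells, 873 ± 46.0 TPM in siH1f0 cells and 863 ± 40.0 TPM in siControl cells (SD, n = 2 each), and over all 6 libraries it ranked 117 of the 13427 genes tested. The serine pathway enzymes Psat1 and Phgdh came next with means of 624 and 597 TPM over the 6 libraries, followed by Asns at 530.1 and Ddit3 at 447 TPM. Trib3 averaged 323 TPM, Chac1 211 TPM and Ppp1r15a 195 TPM. Sesn2, at 103 TPM, and Slc7a11, at 18.4 TPM and rank 7943, were the lowest. In this order the 6 libraries of 3 pairs of neighbours overlapped, namely Psat1 with Phgdh, Asns with Ddit3, and Chac1 with Ppp1r15a.

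**Figure D1:**
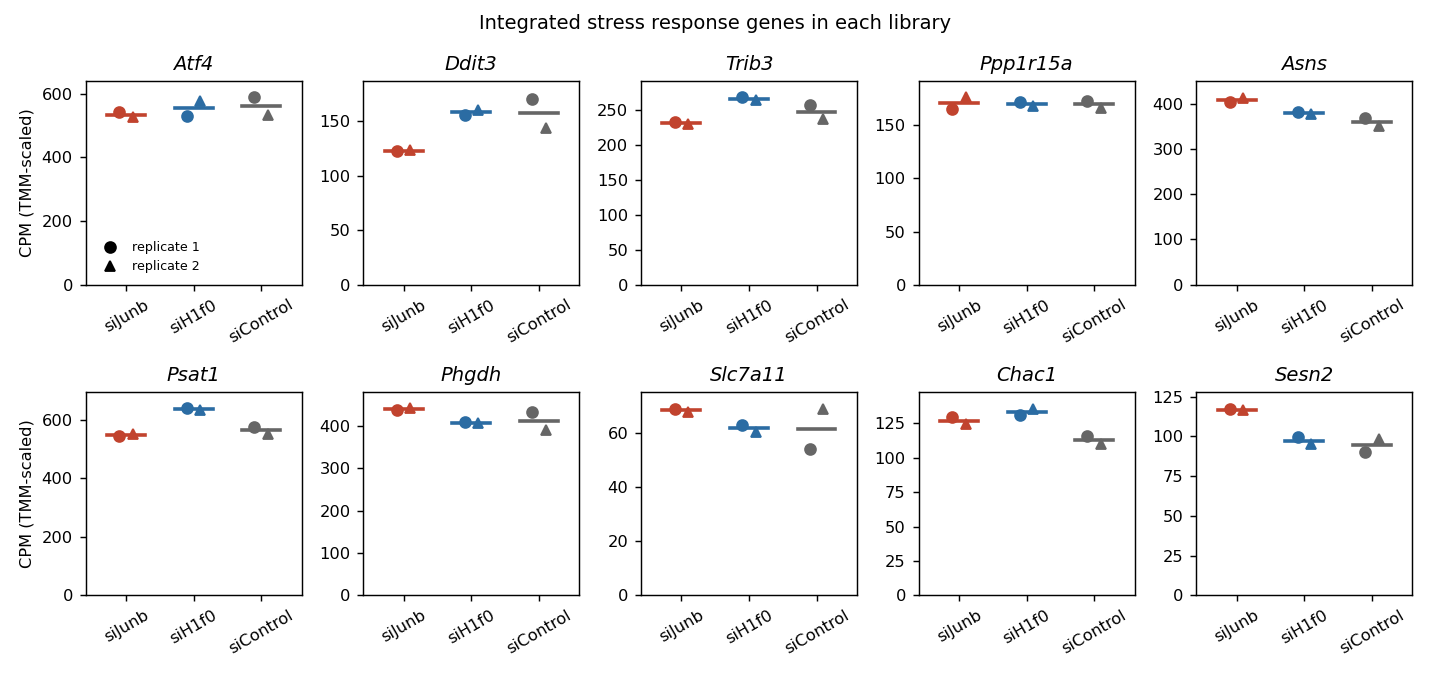
Level of each of the 10 genes in each library, in TMM-scaled CPM on linear axes that start at 0; points are libraries, bars are group means, and groups run siJunb, siH1f0, siControl. Ddit3 sits at 122 and 123 CPM in siJunb cells, under the 144 to 170.4 CPM of the other 4 libraries, while Atf4 and Ppp1r15a overlap in all 3 groups.

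The promoters of the members were searched for the sites of the factors concerned. RefSeq windows on build GRCm38.p6, from 250 bases before to 50 after each annotated start, were read on both strands for the core of the C/EBP-ATF response element (TGATGNAA), which ATF4 and C/EBP dimers bind, for the AP-1 site (TGANTCA), which JUN and FOS dimers bind, and for the core of the antioxidant response element (TGACNNNGC), which NRF2 binds. The last 2 patterns can share bases, but no matches overlapped in the members. All 10 members matched a window by symbol, and Psat1 had 2 windows. The C/EBP-ATF core was in the windows of 4 members (Asns, Chac1, Trib3 and Slc7a11, the last with 2 matches) and in 3.97% of all 32851 windows. The AP-1 site was in 1 member, Ddit3, and in 7.81% of all windows. The antioxidant core was in 4 members (Asns, Phgdh, Sesn2 and Ppp1r15a) and in 12.4% of all windows. Atf4 and Psat1 had no match to the letters searched. The stretches below show where the matches lie in the genes that passed a test in some comparison, with Slc7a11 for its paired match; they run 5′ to 3′ on the strand of the gene, matches are in capitals, and a match is a description, not a measured binding site. The first 2 cover 250 to 51 bases before the start.
Ddit3 (chr10:127290543-127290742, + strand): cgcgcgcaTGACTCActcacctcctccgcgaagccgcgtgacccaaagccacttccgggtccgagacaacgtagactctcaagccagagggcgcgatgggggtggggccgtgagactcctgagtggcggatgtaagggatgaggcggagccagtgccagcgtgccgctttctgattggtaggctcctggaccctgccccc
Chac1 (chr2:119350992-119351191, + strand): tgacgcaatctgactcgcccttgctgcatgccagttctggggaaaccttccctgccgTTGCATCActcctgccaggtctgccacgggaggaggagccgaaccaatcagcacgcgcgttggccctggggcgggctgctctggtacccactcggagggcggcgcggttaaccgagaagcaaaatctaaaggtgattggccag
Asns C/EBP-ATF core (chr6:7693214-7693243, - strand): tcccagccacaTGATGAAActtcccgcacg
Asns antioxidant core (chr6:7693362-7693391, - strand): tatcctgcctGCAGTGTCAcagcaccttaa
Trib3 (chr2:152344028-152344057, - strand): ttagctcaggtTTACATCAgccgggcgggg
Slc7a11 upstream match (chr3:50443661-50443690, - strand): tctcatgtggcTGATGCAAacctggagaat
Slc7a11 downstream match (chr3:50443642-50443671, - strand): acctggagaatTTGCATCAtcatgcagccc
Sesn2 (chr4:132510473-132510502, - strand): cgcagcgggcTGACAGAGCcgggcgagcgc

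Of the 10 genes, 3 passed the edgeR test (Benjamini-Hochberg adjusted p under 0.05) in siJunb against siControl cells: Sesn2 and Asns were higher and Ddit3 was lower. Only Chac1 passed in siH1f0 against siControl cells, where it was higher. In siH1f0 against siJunb cells 4 passed, with Ddit3, Trib3 and Psat1 higher in siH1f0 cells and Sesn2 lower. All of these differences were small, with fold changes between 0.781 and 1.29. Atf4, Phgdh, Slc7a11 and Ppp1r15a passed in none of the 3 comparisons with all 6 libraries. The first and second of these comparisons share the siControl libraries, and the third shares the knockdown libraries with them. With 2 libraries in each group, the smallest two-sided p of an exact permutation test is 0.333, so the calls rest on the spread shared across genes, and p-values measure the spread between these libraries. In bulk RNA, fewer cells with a transcript and less of it per cell cannot be told apart.

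Atf4 (chr15:80255184-80257545), the transcription factor at the centre of the response, had 542 and 526 CPM in siJunb cells, 531 and 577 CPM in siH1f0 cells and 589 and 532 CPM in siControl cells. The 3 groups overlapped. The log2 change was -0.07 (95% interval -0.21 to 0.07, edgeR adjusted p = 0.473) in siJunb and -0.02 (-0.16 to 0.12, edgeR adjusted p = 0.897) in siH1f0 cells, both against siControl cells.

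Ddit3 (chr10:127290793-127296291) encodes CHOP, a bZIP factor that ATF4 induces and that takes prolonged stress towards cell death. It had 122 and 123 CPM in siJunb cells, 156 and 159.96 CPM in siH1f0 cells and 170.4 and 144 CPM in siControl cells. Both siJunb libraries were below all 4 others, and the siH1f0 libraries lay between the 2 siControl libraries. Ddit3 fell in siJunb cells to 122.9 ± 0.546 CPM, against 157.2 ± 18.6 CPM in siControl cells (SD, n = 2 each), and the log2 change was -0.36 ± 0.0743 (SE; edgeR adjusted p = 0.0149). Against siControl cells the siH1f0 value was 0.01 (95% interval -0.16 to 0.17, edgeR adjusted p = 0.972). Ddit3 was also 1.29-fold higher in siH1f0 than in siJunb cells (log2 0.36 ± 0.0744 SE, edgeR adjusted p = 0.00824). The annotated gene shares 77 bases with Mbd6 and 71 with Mars1 (Mars in the count table), and whether reads were counted by strand is not given in the sources used here. Neither neighbour passed in any comparison: in siJunb against siControl cells Mbd6 had a log2 change of -0.11 (edgeR adjusted p = 0.247) and Mars one of 0.07 (edgeR adjusted p = 0.302). The AP-1 match printed above lies 242 bases before the start of Ddit3. Such a match was in 7.81% of all windows, and its part in the change of Ddit3 was not tested.

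Trib3 (chr2:152337425-152344060) encodes a pseudokinase that ATF4 and CHOP induce and that binds ATF4 in a negative feedback. It had 233 and 229 CPM in siJunb cells, 268 and 264 CPM in siH1f0 cells and 257 and 237 CPM in siControl cells. The siJunb libraries were the lowest and the siH1f0 libraries the highest, with no overlap between groups. Trib3 was 1.15-fold higher in siH1f0 than in siJunb cells (log2 0.20 ± 0.0517 SE, edgeR adjusted p = 0.0213). Neither comparison with siControl cells passed, with log2 values of -0.09 in siJunb cells (95% interval -0.21 to 0.02, edgeR adjusted p = 0.253) and 0.11 in siH1f0 cells (-0.01 to 0.23, edgeR adjusted p = 0.251).

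Ppp1r15a (chr7:45522917-45526268) encodes GADD34, the regulatory subunit that brings protein phosphatase 1 to eIF2 and so ends the response. It had 166 and 177 CPM in siJunb cells, 172 and 169 CPM in siH1f0 cells and 173 and 167 CPM in siControl cells. The 3 groups overlapped. Its log2 change was 0.01 in siJunb cells (95% interval -0.11 to 0.13, edgeR adjusted p = 0.905), and the siH1f0 interval ran from -0.11 to 0.12 (edgeR adjusted p = 0.982), both against siControl cells. The gene shares 730 annotated bases with Tulp2, which had 0 to 6 counts in a library.

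Asns (chr6:7675165-7693209), asparagine synthetase, makes asparagine from aspartate and is among the best studied ATF4 targets. It had 404 and 414 CPM in siJunb cells, 383 and 377 CPM in siH1f0 cells and 369.7 and 352 CPM in siControl cells. The 3 groups were separate, with siJunb highest and siControl lowest. Asns rose in siJunb cells to 409 ± 7.24 CPM, against 361 ± 12.2 CPM in siControl cells (SD, n = 2 each), and the log2 change was 0.18 ± 0.046 (SE; edgeR adjusted p = 0.0305). The siH1f0 value against siControl cells was 0.07 (95% interval -0.03 to 0.18, edgeR adjusted p = 0.378). Relative to siJunb cells the siH1f0 value was -0.11 (edgeR adjusted p = 0.125).

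Psat1 (chr19:15905123-15925059), phosphoserine aminotransferase, catalyses the middle step of serine synthesis. It had 544 and 552 CPM in siJunb cells, 639 and 634 CPM in siH1f0 cells and 576 and 551 CPM in siControl cells. Both siH1f0 libraries were above the other 4, while siJunb and siControl overlapped. Psat1 was 1.16-fold higher in siH1f0 than in siJunb cells (log2 0.22 ± 0.0441 SE, edgeR adjusted p = 0.00824). The siH1f0 log2 value against siControl cells was 0.18 ± 0.0441 (SE) and missed the threshold (edgeR adjusted p = 0.0514). For siJunb against siControl cells it was -0.04 (95% interval -0.14 to 0.06, edgeR adjusted p = 0.58).

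Phgdh (chr3:98313171-98339969), phosphoglycerate dehydrogenase, catalyses the first step of the same pathway. It had 437 and 443 CPM in siJunb cells, 409.7 and 406 CPM in siH1f0 cells and 433 and 390.5 CPM in siControl cells. The siJunb libraries were the highest, by a small margin over siControl 1, and the siH1f0 libraries lay between the siControl libraries. Its log2 value against siControl cells was 0.10 in siJunb cells (95% interval -0.03 to 0.22, edgeR adjusted p = 0.272) and -0.01 in siH1f0 cells (-0.14 to 0.11, edgeR adjusted p = 0.914). Relative to siJunb cells the siH1f0 value was -0.11 (edgeR adjusted p = 0.184), while Psat1, the next enzyme of the pathway, was higher in siH1f0 cells in that comparison.

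Slc7a11 (chr3:50364936-50499087) encodes xCT, which imports cystine for glutathione in exchange for glutamate. It had 68.7 and 67.7 CPM in siJunb cells, 62.8 and 60.3 CPM in siH1f0 cells and 54.0 and 68.7 CPM in siControl cells. The siControl libraries were the lowest and the highest of the 6, so both knockdowns overlapped with them. The log2 value against siControl cells was 0.16 in siJunb cells, and its 95% interval ran from -0.07 to 0.38 (edgeR adjusted p = 0.314). In siH1f0 cells that interval ran from -0.22 to 0.23 (edgeR adjusted p = 0.981).

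Chac1 (chr2:119351242-119354326) encodes a cyclotransferase that breaks down glutathione, the product that cystine import feeds. It had 129 and 124 CPM in siJunb cells, 131 and 136 CPM in siH1f0 cells and 116 and 110.1 CPM in siControl cells. All 4 knockdown libraries were above both siControl libraries. Chac1 rose in siH1f0 cells to 133 ± 3.30 CPM, against 113 ± 4.09 CPM in siControl cells (SD, n = 2 each), and the log2 change was 0.24 ± 0.0516 (SE; edgeR adjusted p = 0.0314). The siJunb log2 value against siControl cells was 0.17 ± 0.0517 (SE) and did not pass (edgeR adjusted p = 0.0597). Between the knockdowns, siH1f0 against siJunb, it was 0.07 (95% interval -0.05 to 0.19, edgeR adjusted p = 0.35), so the 2 knockdowns were not shown to differ in Chac1.

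Sesn2 (chr4:132492804-132510456) encodes a leucine-binding protein that restrains mTORC1 when amino acids are short. It had 117 and 116 CPM in siJunb cells, 99.4 and 95.03 CPM in siH1f0 cells and 90.4 and 98.1 CPM in siControl cells. Both siJunb libraries were above the other 4, and siH1f0 and siControl overlapped. Sesn2 rose in siJunb cells to 117 ± 0.656 CPM, against 94.2 ± 5.41 CPM in siControl cells (SD, n = 2 each), and the log2 change was 0.31 ± 0.0561 (SE; edgeR adjusted p = 0.00843). It was also lower in siH1f0 than in siJunb cells (log2 -0.26 ± 0.0561 SE, edgeR adjusted p = 0.00975). The siH1f0 value against siControl cells was 0.05 (95% interval -0.08 to 0.17, edgeR adjusted p = 0.676). Sesn2 and Ddit3 thus changed in opposite directions in siJunb cells.

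**Figure D2:**
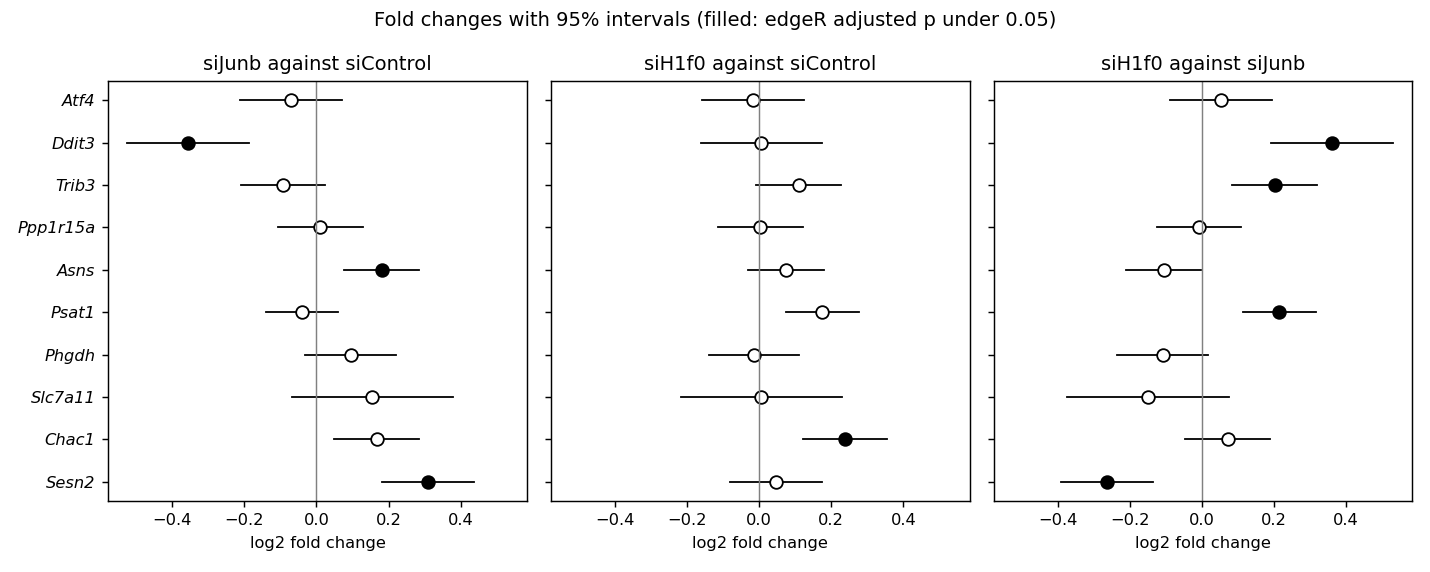
Log2 fold change of each of the 10 genes in the 3 comparisons, with 95% intervals from the edgeR fit; filled points passed at adjusted p under 0.05. The largest value of siJunb against siControl is -0.36 for Ddit3, opposite in sign to 0.31 for Sesn2, and Atf4 has an interval across 0 in all 3 comparisons.

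In siJunb against siControl cells the 3 of 10 members called compare with 16.5% of all genes tested. The 2 called higher compare with 8.63% and the 1 called lower with 7.82%, and the 6 of 10 whose libraries did not overlap compare with 58.0%. The median log2 change was 0.05 over the members and 0.002 over all genes, and the median absolute change was 0.125 and 0.140. Ddit3 and Sesn2 lost their calls without siJunb 1 or without siJunb 2, fits that leave 1 siJunb library. In that order the log2 values there were -0.35 and -0.36 for Ddit3 and 0.30 and 0.32 for Sesn2. Asns lost its call without any 1 of the 4 knockdown libraries, with log2 values from 0.16 to 0.20. Without siControl 1 the log2 changes were -0.23 for Ddit3, 0.25 for Sesn2, 0.22 for Asns, 0.21 for Chac1 and 0.17 for Phgdh. Those of Atf4, Trib3, Psat1, Slc7a11 and Ppp1r15a lay between -0.03 and 0.04. The value of Slc7a11 there was -0.01, against 0.16 with all 6 libraries. Without siControl 2 the value was -0.48 for Ddit3. That fit and the one without siControl 1 leave 1 siControl library each, so that group adds no replicate spread to them.

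For siH1f0 against siControl cells, the 1 of 10 called compares with 6.55% of all genes, the 1 called higher with 2.27% and the 0 called lower with 4.27%. The libraries of 4 of 10 did not overlap, against 50.6% of all genes. The median log2 change was 0.03 over the members and 0.003 over all genes, and the median absolute change was 0.0318 over the members, against 0.110 over all genes. Chac1, the single call, lost it without any 1 of the 4 knockdown libraries, with log2 values from 0.21 to 0.26. Without siControl 1, which leaves 1 siControl library and so no replicate spread in that group, the log2 change of Chac1 was 0.28. The values there were 0.21 for Psat1, 0.17 for Trib3, 0.13 for Ddit3, 0.11 for Asns and -0.16 for Slc7a11. Those of Atf4, Sesn2, Phgdh and Ppp1r15a lay between -0.01 and 0.06. Without siControl 2 the values of Ddit3 and Slc7a11 had the other sign, -0.11 and 0.18. The direction of these 2 genes thus depended on which siControl library was kept.

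For siH1f0 against siJunb cells, the 4 of 10 called compare with 25.9% of all genes, the 3 called higher with 12.2%, the 1 called lower with 13.8%, and the 8 of 10 without overlap with 71.7%. The median log2 difference was 0.02 over the members and 0.0007 over all genes, and the median absolute difference 0.129 and 0.164. Ddit3, Trib3, Psat1 and Sesn2 lost their calls without any 1 of the 4 knockdown libraries. Their log2 values there ran from 0.35 to 0.38, 0.19 to 0.22, 0.20 to 0.22 and -0.29 to -0.23. Their log2 values without siControl 1, which enters this comparison only through the shared spread, were 0.36, 0.20, 0.21 and -0.26. With only the 4 libraries compared, those 4 genes kept their calls. There Asns (-0.10, edgeR adjusted p = 0.00083), Phgdh (-0.11, edgeR adjusted p = 0.0005) and Slc7a11 (-0.15, edgeR adjusted p = 0.0022) also passed as lower in siH1f0 cells. The number of genes called also rose in that fit, to 6416 from 3484 with all libraries. With all libraries the log2 values of Asns, Phgdh and Slc7a11 were nearly the same, at -0.11, -0.11 and -0.15.

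The replicates of the members were closer in the knockdown groups than in siControl. On the log2 scale, replicate 1 minus replicate 2 ran from -0.10 to 0.05 over the 10 genes in siJunb cells, from -0.12 to 0.07 in siH1f0 cells and from -0.35 (Slc7a11) to 0.24 (Ddit3) in siControl cells. In siControl 8 of the 10 genes were higher in replicate 1, the library that stands apart, and the median difference was 0.07 over the members and 0.006 over all genes. Over all genes tested, the chi-square of the replicate counts per degree of freedom was 3.80, 3.85 and 74.6 in siJunb, siH1f0 and siControl cells. It is taken on raw counts, so genes with many counts weigh most. Rn45s had 1631869 counts in siControl 1 and 414063 in siControl 2. The SD of the log2 difference over all genes was 0.317, 0.284 and 0.312 in that order.

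**Figure D3:**
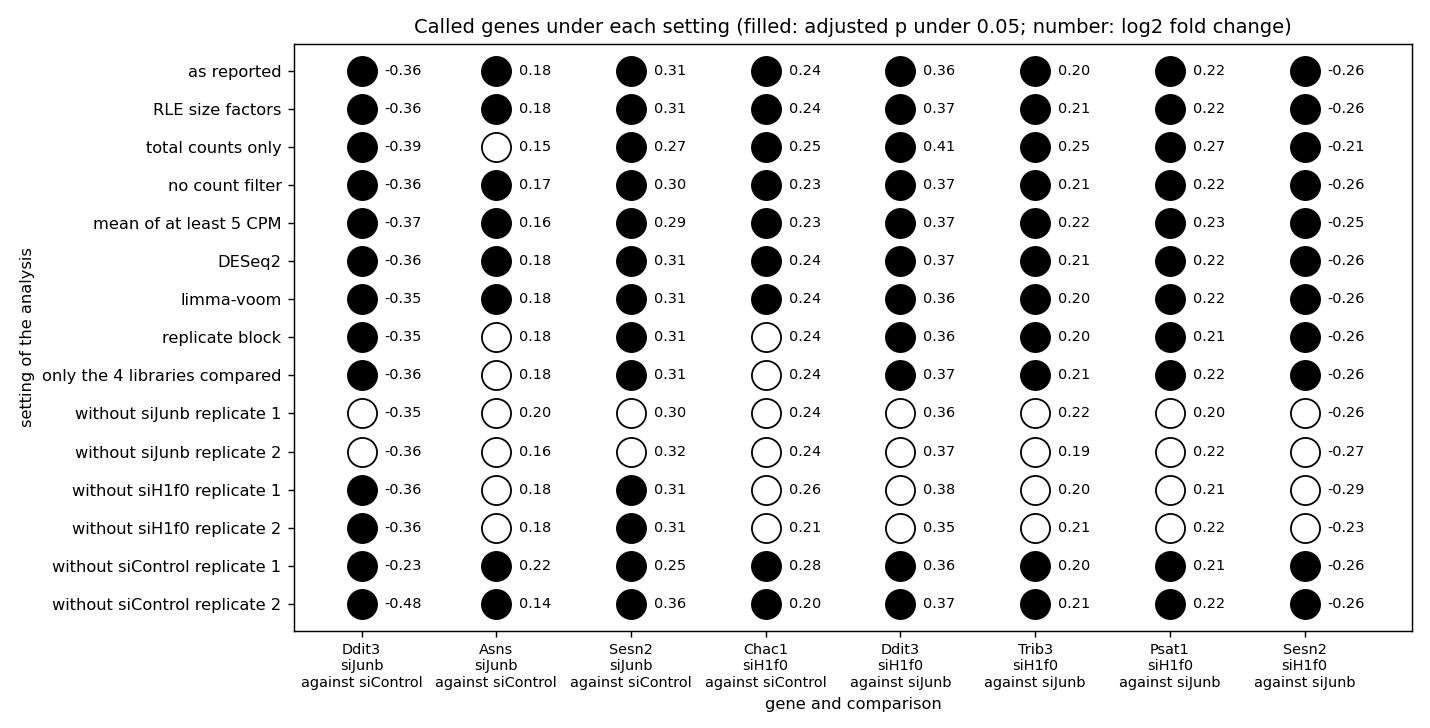
Members called in the edgeR fit, with a column for each gene and comparison called, under that fit and the 14 alternative settings. Filled circles mark adjusted p under 0.05, and the numbers are log2 fold changes. In siJunb against siControl Ddit3 and Sesn2 are called under 12 of 14 alternatives and Asns under 7, and in siH1f0 against siControl Chac1 is called under 8.

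The other genes of the pathway and its neighbours are given by list, and each count reads against the share of all genes tested: 8.63% were called higher and 7.82% lower in siJunb against siControl cells, 2.27% and 4.27% in siH1f0 against siControl cells, and 12.2% and 13.8% in siH1f0 against siJunb cells. The lists were chosen with results of these data known. Upstream of ATF4, 16 genes for the eIF2 kinases, their regulators, eIF2 and eIF2B were tested. In siJunb against siControl cells 2 were higher and 0 lower (4 at an unadjusted p under 0.05). These were Impact, which restrains the amino acid sensing kinase GCN2, and Eif2s2, the beta subunit of eIF2 (log2 0.23, edgeR adjusted p = 0.00951), whose call was lost without either siJunb library. Impact had 136 and 134 CPM in siJunb cells, against 93.3 and 91.9 CPM in siControl cells, with no overlap, and the log2 change was 0.54 ± 0.0473 (SE; edgeR adjusted p = 0.000329), and it kept the call under all 14 alternatives. With siH1f0, 1 was lower than in siControl cells and 0 were higher, the 1 being Eif2b2 of the exchange factor eIF2B (log2 -0.30, edgeR adjusted p = 0.017), a call lost without any 1 of the knockdown libraries. Set against siJunb cells, siH1f0 cells had 1 higher (Eif2b5, 0.18) and 4 lower, namely Impact (log2 -0.64, edgeR adjusted p = 6e-05), Eif2b2 (-0.29, edgeR adjusted p = 0.00657), Eif2b1 (-0.17) and Eif2s2 (-0.15). The median log2 change of the 16 was 0.03 in siJunb and 0.05 in siH1f0 cells, both against siControl cells.

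Among 10 bZIP partners and transcriptional regulators, Cebpd, a C/EBP family member, changed in opposite directions in the knockdowns. It had 144 and 138 CPM in siJunb cells, 50.7 and 55.1 CPM in siH1f0 cells and 84.1 and 77.6 CPM in siControl cells. The 3 groups were separate. The log2 change against siControl cells was 0.80 ± 0.0627 in siJunb cells (SE, edgeR adjusted p = 0.000186) and -0.61 ± 0.0635 in siH1f0 cells (SE, edgeR adjusted p = 0.00113), and siH1f0 against siJunb cells gave -1.42 (edgeR adjusted p = 5.3e-06). It passed under all 14 alternatives in each comparison. In siJunb against siControl cells 2 of the list were higher and 1 lower: with Cebpd, Nfe2l2 (NRF2, log2 0.24, edgeR adjusted p = 0.00923) was higher and Atf3 (-0.21, edgeR adjusted p = 0.0386) lower. With siH1f0, again against siControl cells, Jdp2, which binds AP-1 sites as a repressor, was the 1 higher (0.22, edgeR adjusted p = 0.0326) and Cebpd the 1 lower. Set against siJunb cells, siH1f0 cells had 3 higher (Jdp2, Atf5 and Atf3, with log2 values of 0.36, 0.34 and 0.25) and 2 lower (Cebpd and Nfe2l2). The call of Nfe2l2 in siJunb cells was lost without either siJunb library, and those of Atf3 in siJunb cells and Jdp2 in siH1f0 cells without any 1 of the knockdown libraries.

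The other amino acid genes that passed differed in direction. Of 12 further enzymes of amino acid synthesis and one-carbon metabolism 11 were tested. With siJunb, against siControl cells, Mthfd1l was the 1 higher (log2 0.18, edgeR adjusted p = 0.0319, lost without any 1 of the knockdown libraries) and Got1, the cytosolic aminotransferase that interconverts aspartate and glutamate with their keto acids, the 1 lower. Got1 had 51.8 and 51.6 CPM in siJunb cells, 89.8 and 88.4 CPM in siH1f0 cells and 95.1 and 88.1 CPM in siControl cells. Its siJunb libraries were far below the other 4, a log2 change of -0.83 ± 0.0554 against siControl cells (SE, edgeR adjusted p = 9.3e-05) that passed under all 14 alternatives. With siH1f0, 0 of the 11 passed in edgeR against siControl cells (3 at an unadjusted p under 0.05). Higher in siH1f0 than in siJunb cells were 3, namely Got1 (0.79), Gpt2 (0.17) and Pck2 (0.20), and Mthfd1l was lower (-0.16).

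Of 9 amino acid transporters, 4 were lower (4.27% of all genes) and 0 higher (2.27%) in siH1f0 against siControl cells, and the median log2 change of the 9 was -0.17, against 0.003 over all genes. The 4 were Slc7a5 (LAT1, which imports large neutral amino acids, log2 -0.27, edgeR adjusted p = 0.00835), its partner subunit Slc3a2 (-0.25, edgeR adjusted p = 0.0308), Slc1a4 (-0.29, edgeR adjusted p = 0.0115) and Slc6a9 (-0.19, edgeR adjusted p = 0.0477). Slc3a2 is also the partner of the xCT protein encoded by Slc7a11. Slc7a5 had 631 and 613 CPM in siH1f0 cells, against 747 and 754 CPM in siControl cells, with no overlap. All 4 lost the call without either siH1f0 library, and all but Slc1a4 also without either siJunb library. With siJunb, against siControl cells, Slc1a5 (0.18) and Slc7a1 (0.21) were higher and Slc1a4 was lower (-0.25, edgeR adjusted p = 0.0112), with a median of -0.12. Slc1a4 lost that call without either siJunb library, and Slc1a5 and Slc7a1 without any 1 of the knockdown libraries. Without siControl 1 the log2 change of Slc7a1 was 0.13. Between siH1f0 and siJunb cells 0 were higher in siH1f0 and 3 lower, Slc1a5 (-0.36), Slc7a1 (-0.21) and Slc7a5 (-0.15).

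Of 13 genes for aminoacyl-tRNA synthetases and tRNA export, 0 were higher in siJunb against siControl cells and 1, the export factor Xpot, was lower (log2 -0.24, edgeR adjusted p = 0.0409; 3 of the list at an unadjusted p under 0.05). Xpot lost the call without any 1 of the knockdown libraries, and its log2 change was -0.14 without siControl 2. In siH1f0 against siControl cells 0 passed in edgeR (2 at an unadjusted p under 0.05). In siH1f0 against siJunb cells 2 were higher, Xpot (0.27) and Eprs (0.22), and 4 lower, with Lars (-0.18) first by p.

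Of 15 other outputs of ATF4 or CHOP, 4 were higher (8.63% of all genes) and 0 lower (7.82%) in siJunb against siControl cells (6 at an unadjusted p under 0.05). They were Tnfrsf10b, the TRAIL death receptor that CHOP induces (log2 0.40, edgeR adjusted p = 0.00313), the BH3-only protein gene Pmaip1 (0.30, edgeR adjusted p = 0.00971), and the autophagy genes Atg12 (0.29, edgeR adjusted p = 0.00502) and Sqstm1 (0.22, edgeR adjusted p = 0.0133). Tnfrsf10b had 59.3 and 56.4 CPM in siJunb cells, against 42.8 and 45.0 CPM in siControl cells, without overlap, although Ddit3 itself was lower there. Tnfrsf10b lost its call without siJunb 1 (edgeR adjusted p = 0.0615), and the other 3 lost theirs without either siJunb library, Sqstm1 also without either siH1f0 library. With siH1f0, 0 were higher than in siControl cells and 4 lower, namely Nars2 (-0.49), Eif4ebp1 (-0.26), Ero1l (-0.27) and Ddit4 (-0.47), each lost without either siH1f0 library, and all but Nars2 also without either siJunb library. Without siControl 2 the log2 change of Ero1l was -0.18. Set against siJunb cells, siH1f0 cells had 1 higher (12.2% of all genes) and 10 lower (13.8%), with a median of -0.24 against 0.0007 over all genes. Tnfrsf10b (-0.51, edgeR adjusted p = 0.000456), Atg12 (-0.36, edgeR adjusted p = 0.000978) and Sqstm1 (-0.29, edgeR adjusted p = 0.00206) led the 10. The 1 higher, named after its value was seen, was Fgf21 (edgeR adjusted p = 0.0436), which had 0.515 and 0.344 CPM in siH1f0 cells, against 0.176 and 0.126 CPM in siJunb cells, and did not pass under DESeq2 or limma-voom.

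The paralogs of the members held calls of their own. Sesn1, a paralog of Sesn2, was lower in siJunb than in siControl cells (log2 -0.25, edgeR adjusted p = 0.0108), while Sesn2 was higher, and it was higher in siH1f0 than in siJunb cells (0.33, edgeR adjusted p = 0.00169). Trib2 was lower in siH1f0 than in siJunb cells (-0.99, edgeR adjusted p = 0.00152), where Trib3 was higher. Trib2 had a low level and was left out of the alternative that keeps genes with a mean of at least 5 CPM. Trib3 had 229 to 268 CPM over the libraries. Trib1 (-0.42, edgeR adjusted p = 0.0213) and Trib2 (-0.59, edgeR adjusted p = 0.042), paralogs of Trib3, were lower in siH1f0 against siControl cells. Over the 7 paralogs, 0 were higher and 1 lower in siJunb cells, and 0 higher and 3 lower in siH1f0 cells with Slc7a5 as the other, each against siControl cells. Between siH1f0 and siJunb cells 1 (Sesn1) was higher in siH1f0 and 2 (Trib2 and Slc7a5) were lower. The siJunb call of Sesn1 was lost without either siJunb library, and the siH1f0 calls without any 1 of the knockdown libraries.

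Neighbouring stress pathways were set beside the members. Of 20 genes of the ATF6 and XBP1 branches of the unfolded protein response, 0 passed in edgeR in siJunb against siControl cells (4 at an unadjusted p under 0.05). In siH1f0 against siControl cells 0 were higher and 2 lower, the chaperone genes Dnajb11 (log2 -0.31, edgeR adjusted p = 0.00712) and Calr (-0.24, edgeR adjusted p = 0.0272), both lost without either siH1f0 library, and Calr also without either siJunb library. Relative to siJunb cells, siH1f0 cells had 1 higher, Herpud1 (0.16), and 3 lower, Dnajb11 (-0.37, edgeR adjusted p = 0.000874), Calr (-0.20) and Atf6b (-0.18). Hspa5, the chaperone BiP and the usual readout of endoplasmic reticulum stress, had 782 and 786 CPM in siJunb cells, 772 and 769 CPM in siH1f0 cells and 832 and 801 CPM in siControl cells, the highest being the siControl libraries. Of 10 NRF2 antioxidant targets, 3 were higher (8.63% of all genes) and 0 lower (7.82%) in siJunb against siControl cells: G6pdx (0.43, edgeR adjusted p = 0.00175), Srxn1 (0.25, edgeR adjusted p = 0.0192) and Txnrd1 (0.18, edgeR adjusted p = 0.0244). G6pdx passed under all 14 alternatives, and the other 2 lost the call without any 1 of the knockdown libraries. In siH1f0 against siControl cells 0 passed in edgeR (1 at an unadjusted p under 0.05), and in siH1f0 against siJunb cells 0 were higher and 4 lower, led by G6pdx (-0.47, edgeR adjusted p = 0.000443) and Srxn1 (-0.36, edgeR adjusted p = 0.00234), with Hmox1 (-0.20) and Txnrd1 (-0.13). Of 8 mitochondrial proteases and chaperones, Clpx (0.23) and Hspd1 (0.18) were higher and Hspa9 (-0.16) lower in siJunb against siControl cells, and 0 passed in siH1f0 against siControl cells (1 at an unadjusted p under 0.05). Relative to siJunb cells, siH1f0 cells had Hspa9 higher (0.14) and Hspd1 (-0.22), Hspe1 (-0.22) and Clpx (-0.18) lower. Of 7 cytosolic heat shock genes tested, Hsph1 was the 1 lower in siJunb against siControl cells (-0.24, edgeR adjusted p = 0.0131), and 0 passed in siH1f0 against siControl cells (0 at an unadjusted p under 0.05). Relative to siJunb cells, Hsph1 was higher (0.19) and Bag3 lower (-0.19) in siH1f0 cells. In siJunb cells Hsph1 lost its call without either siJunb library, and Clpx, Hspd1 and Hspa9 theirs without any 1 of the knockdown libraries.

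Of the genes named from these lists in siH1f0 against siJunb cells, Impact, Cebpd, Jdp2, Nfe2l2, Got1, Slc1a5, Tnfrsf10b, Atg12, Sesn1, Dnajb11, G6pdx and Srxn1 passed under all 14 alternatives, and Trib2 under the 13 that tested it. Sqstm1 lost its call without siH1f0 1 (edgeR adjusted p = 0.0513) and Atf5 without siJunb 2 or either siH1f0 library. The others named there lost theirs without any 1 of the 4 knockdown libraries. In the comparisons with siControl cells, the named list genes kept their sign without siControl 1, 23 of 23 for siJunb and 15 of 15 for siH1f0. These genes were chosen by their calls with all 6 libraries, so the kept signs are not separate support. Of the siJunb genes 1, Slc7a1, moved by more than 1.5 times, from 0.21 to 0.13. With only the 4 libraries compared, Atf3, Mthfd1l, Slc1a5, Slc7a1, Xpot, Sqstm1, Clpx, Hspd1, Hspa9, Srxn1 and Txnrd1 did not pass in siJunb cells, and of the genes named in siH1f0 cells only Cebpd, Slc1a4 and Dnajb11 did. The siH1f0 call of Trib2 was also lost under limma-voom.

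**Figure D4:**
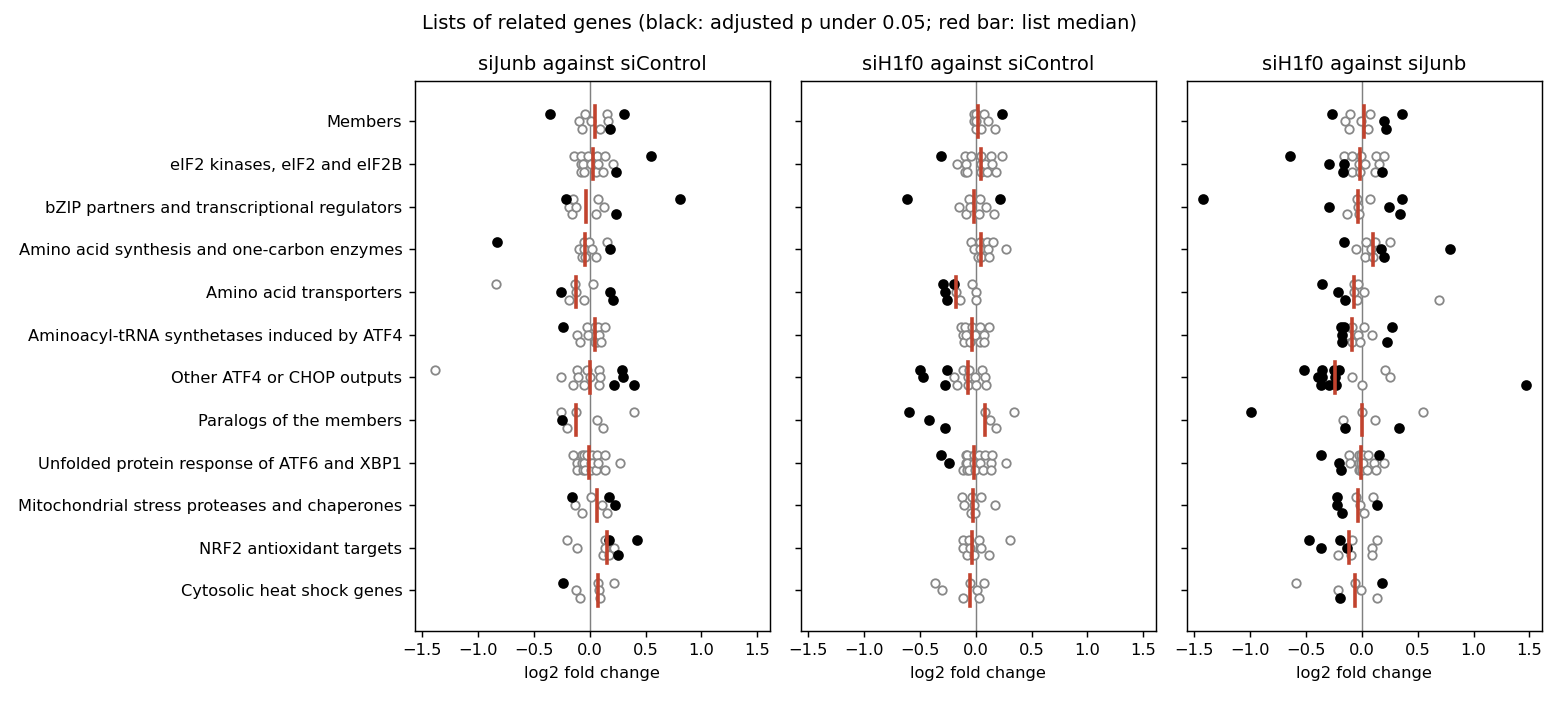
Log2 fold change of each tested gene of the members and of the pathway lists, one panel per comparison; each point is a gene, filled where it passed at edgeR adjusted p under 0.05, and the bars are list medians. The points of the members stay within 0.36 of 0 on either side, and the list of other ATF4 or CHOP outputs has its median at -0.24 in siH1f0 against siJunb cells.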

How the data were processed

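The deposited table holds raw read counts per gene symbol for 6 libraries, with a gene length column, per the file headers. HISAT2, Subread and featureCounts are listed, with build mm10 and no version numbers, per the submitters' processing notes. Annotation release, strandedness of counting and handling of multiply matching reads are not stated there. Counts were tested in R 4.3.3 with the quasi-likelihood F test of edgeR 4.0.16, with TMM factors (0.979 to 1.02), the filterByExpr filter (13427 of 24516 genes), all 6 libraries and group as the only term (3 residual degrees of freedom). Benjamini-Hochberg adjustment ran over all genes tested, and adjusted p under 0.05 was a call. CPM use TMM-scaled totals, and TPM use the deposited gene length. DESeq2 1.42.0 and limma 3.58.1 (voom) served as alternatives. The fit was tested on simulated data in which all groups had the same spread for a gene. That test does not cover a library that stands apart, as siControl 1 does.

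The members and lists were chosen with earlier results of these data known. All 10 members are given in every comparison. From each other list up to 3 called genes with the smallest p per comparison are named, or all where 5 or fewer were called. Junb and H1f0 are given in each knockdown against siControl cells. Further genes (Actc1, Myh6, Myh7, Tnnt2, Mef2c, Gata4, Rn45s, Hspa5, Mbd6, Mars, Tulp2) were named after their values were seen. Promoters and gene coordinates come from RefSeq GRCm38.p6, the build also called mm10, in which 23591 of the 24516 symbols were found.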

Additional observations from a re-analysis of the deposited data

How the results depend on the processing

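Each group had 2 libraries, and each member had at least 3237 counts in every library. The number of genes called was 2209 in siJunb against siControl cells, 879 in siH1f0 against siControl cells and 3484 in siH1f0 against siJunb cells. Leaving out 1 library gave 352 to 5521, 116 to 4932 and 1304 to 6435, with the lone library of a group assumed to vary like the others; fewest were called without a library of a knockdown compared and most without a siControl library. Members called, 3, 1 and 4, then ran from 0 to 8, from 0 to 6 and from 0 to 7. With only the 4 libraries compared, 1094, 325 and 6416 genes were called, with Asns losing its siJunb call, 0 members in siH1f0 against siControl cells and 7 in siH1f0 against siJunb cells. Without a count filter 1921 genes were called in siH1f0 against siControl cells, and there 2 members were called (Chac1 and Psat1) with total counts only, with no count filter, with DESeq2 and with limma-voom. With total counts only, the split of higher and lower was 884 and 1369, against 1159 and 1050, in siJunb against siControl cells, and 2222 and 1340, against 1637 and 1847, in siH1f0 against siJunb cells; Asns lost its siJunb call (edgeR adjusted p = 0.0725).

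The correlations of replicate 1 minus replicate 2 between groups were low, at 0.0627, 0.0477 and -0.0412. The labels give only replicate numbers, so whether libraries with the same number were prepared together is not known. With the replicate number as a replicate block, 1684, 550 and 2919 genes and 2, 0 and 4 members were called; Asns in siJunb cells (edgeR adjusted p = 0.0632) and Chac1 in siH1f0 cells (edgeR adjusted p = 0.0643), both against siControl cells, did not pass. In siH1f0 against siControl cells, Slc7a11 was -0.16 without siControl 1 and 0.18 without siControl 2, and Ddit3 was 0.13 without siControl 1 and -0.11 without siControl 2, where all 6 libraries gave values near 0; the cause was not tested. No other value of a member both changed sign and passed.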
